A study of Mus musculus with 9 samples.

Results

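The hypothalamus of pups raised by dams that ate a high-fat high-sucrose diet, and injected with 4-PBA, was compared, across all genes, with that of pups raised by dams on a low-fat diet and injected with vehicle. The question was what remained different from the low-fat group after the treatment. The 6 libraries were chosen by their labels, out of 9 in the series. HA is 3 libraries from pups of high-fat dams (45% of energy as fat) given 4-PBA, and LP is 3 libraries from pups of low-fat dams (10% of energy as fat) given PBS. HP, the other 3 libraries, came from pups of high-fat dams given PBS, and is used for its spread and for values set beside those of HA.

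All pups were wild-type males of ICR, an outbred mouse stock, sampled on postnatal day 21 and reared in litters of 10. Dams were 5 weeks old when their diet began, had eaten it for 5 weeks at mating, and remained on that diet while pregnant and nursing. Injections were peripheral and daily from postnatal day 4 to 16. HA and LP differ in both diet and injection, and a low-fat group given 4-PBA was not analysed here, so the 2 cannot be told apart in this comparison. The libraries are whole hypothalamus, in which fewer cells of a type and less RNA per cell cannot be told apart.

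The hypothalamus sets food intake, energy use, body temperature and the release of pituitary hormones. In its arcuate nucleus, neurons that make POMC peptides restrain feeding and neurons that make AgRP and NPY promote it, and their projections form during the suckling period in rodents. 4-PBA (4-phenylbutyric acid) inhibits histone deacetylases and also acts as a chemical chaperone, a small molecule that helps proteins fold and relieves stress of the endoplasmic reticulum. Immediate early genes are transcribed within minutes of neuronal activity or growth factor signalling, in part through CREB, a factor that binds cAMP response elements in their promoters.

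The sequences shown are the stretches before the RefSeq start site of Nr4a1, Nr4a3, Fos and Junb, the 4 immediate early genes that DESeq2 called higher in HA than in LP. Each is 250 bases from RefSeq (GRCm38.p6), written 5′ to 3′ on the gene's strand. Capitals mark TGACG, the core of the cAMP response element, or its reverse complement CGTCA, so both strands were searched.
Nr4a1: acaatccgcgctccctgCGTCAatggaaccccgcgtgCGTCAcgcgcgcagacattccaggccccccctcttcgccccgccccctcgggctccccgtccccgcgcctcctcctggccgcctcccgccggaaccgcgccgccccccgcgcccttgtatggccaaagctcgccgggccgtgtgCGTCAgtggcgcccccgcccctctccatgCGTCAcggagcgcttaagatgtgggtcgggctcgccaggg
Nr4a3: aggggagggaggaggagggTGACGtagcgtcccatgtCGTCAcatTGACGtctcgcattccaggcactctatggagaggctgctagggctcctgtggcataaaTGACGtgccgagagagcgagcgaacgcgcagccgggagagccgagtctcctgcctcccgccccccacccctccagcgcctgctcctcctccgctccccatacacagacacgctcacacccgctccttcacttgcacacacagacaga
Fos: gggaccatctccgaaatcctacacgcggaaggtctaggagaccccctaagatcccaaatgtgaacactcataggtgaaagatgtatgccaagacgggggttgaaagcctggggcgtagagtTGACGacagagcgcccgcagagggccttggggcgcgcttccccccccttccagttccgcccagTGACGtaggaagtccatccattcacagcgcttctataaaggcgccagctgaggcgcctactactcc
Junb: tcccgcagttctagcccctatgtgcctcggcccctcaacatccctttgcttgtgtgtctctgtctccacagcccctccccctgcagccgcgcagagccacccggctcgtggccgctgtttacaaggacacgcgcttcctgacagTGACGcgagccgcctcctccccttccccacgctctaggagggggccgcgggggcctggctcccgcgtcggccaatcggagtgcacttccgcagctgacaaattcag
The Nr4a1 window (chr15:101266596-101266845, plus strand) held 4 matches, 233, 213, 69 and 40 bases before the start, and lies inside the longer gene span of the deposited table. The Nr4a3 window (chr4:48045055-48045304, plus strand) held 4 as well, at 231, 213, 205 and 147 bases. Its later part, with the match at 147 bases, lies inside the deposited gene span, which starts at 48045153. The Fos window (chr12:85473640-85473889, plus strand) held 2, at 129 and 66 bases, and the Junb window (chr8:84978749-84978998, minus strand) held 1, at 106 bases. None of the 4 windows held the full palindrome TGACGTCA, which 1.55% of 32851 windows of this length hold. At least 1 TGACG was present in 17.8% of all windows, at least 2 in 3.9% and at least 4 in 0.137%. Of the 26 listed immediate early genes, 20 had a RefSeq window. A match was held by 14 of these in the first window of the gene and by 15 in any of its windows. These are counts of genes, while the shares above are over windows. A match describes the letters only.

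Depth was even, with 18226924 to 21823961 counts per library. Levels are CPM, read counts over library sizes scaled by TMM. Markers of the labelled tissue were present in all 9 libraries: the hypothalamic factor Nkx2-1 lay between 34.9 and 46.3 CPM, Otp between 40.7 and 59.98 CPM, and the vasopressin gene Avp between 384 and 725 CPM. Some libraries stood apart from their groups. LP replicate 3 and HA replicate 3 carried high meningeal genes, with Dcn at 45.3 and 124 CPM against 12.7 to 20.4 CPM elsewhere. LP replicates 1 and 2 carried high striatal genes, with Ppp1r1b at 52.3 and 81.9 CPM against 8.34 to 16.1 CPM in the other 7 libraries. Titles carry a code of unstated meaning that never crosses diets, so code and diet cannot be told apart. LP replicates 2 and 3 share a code (Lg63), and LP replicate 1 has another (Lg42). In both HP and HA, replicates 1 and 2 carry Hg43 and replicate 3 carries Hg13. HP and HA thus share both of their codes with each other and neither with LP. Whether a code marks a litter or a dam is not stated, so the libraries of a group may not be independent.

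No gene passed an adjusted p of 0.05 for HA against LP with the quasi-likelihood F test of edgeR (0 of 17546 tested, 0%), and the smallest adjusted p was 0.398. An unadjusted p under 0.05 was given to 1142 genes (6.51%), 537 higher (3.06%) and 605 lower (3.45%) in HA. If no gene differed, 877 would be expected. limma-voom also called 0 (0%). DESeq2 called 27 of 20977 (0.129%), 15 higher (0.0715%) and 12 lower (0.0572%). Libraries of HA and LP did not overlap for 1915 genes (10.9%), 948 of them higher (5.4%) and 967 lower (5.51%). Where groups do not differ, 3 against 3 libraries separate fully with a probability of 0.1, both directions together. The share of 10.9% is near that. Over all genes tested, the median log2 fold change of HA against LP was 0.0057. Leaving out LP replicate 3 gave 14 calls in edgeR, and leaving out both LP replicate 3 and HA replicate 3 gave 23, of which 21 were lower in HA. The values that follow are therefore levels and intervals, and edgeR's adjusted p or 95% interval stands beside them for most genes.

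Immediate early genes stood higher in HA than in LP, and HP stood near LP. Nr4a1 (ENSMUSG00000023034, chromosome 15, 101254269 to 101274795), a nuclear receptor induced by activity, stood at 19.2, 17.9 and 15.6 CPM in LP replicates 1 to 3, 19.6, 17.7 and 19.95 CPM in HP, against 27.3, 26.3 and 25.0 CPM in HA. The lowest HA library was above the highest of the other 6. The log2 fold change of HA against LP was 0.57 (SE 0.092), with an adjusted p of 0.398 in edgeR and 0.00170 in DESeq2. Against HP the estimate was 0.46, with an adjusted p of 0.840 (edgeR). Its relative Nr4a3 (chromosome 4, 48045153 to 48086447) stood at 14.5, 12.7 and 13.05 CPM in LP, 15.2, 15.01 and 13.9 CPM in HP, against 17.6, 23.2 and 19.5 CPM in HA. Again no HA library overlapped either other group (log2 fold change against LP 0.58, SE 0.11, adjusted p 0.434 in edgeR and 0.0187 in DESeq2).

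Fos and Junb encode subunits of the AP-1 transcription factor. Fos (chromosome 12, 85473890 to 85477273), named after its values were seen, stood at 31.3, 28.1 and 23.2 CPM in LP, 34.5, 27.5 and 33.6 CPM in HP, against 40.6, 41.2 and 40.1 CPM in HA. The HA libraries lay close together and above all others, while LP and HP overlapped (HA against LP 0.56, SE 0.11, adjusted p 0.491 in edgeR and 0.00456 in DESeq2). Junb (chromosome 8, 84974484 to 84978718) stood at 27.2, 26.5 and 24.7 CPM in LP, 31.4, 26.2 and 30.8 CPM in HP, against 34.4, 36.6 and 42.1 CPM in HA (HA against LP 0.53, SE 0.095, adjusted p 0.404 in edgeR and 0.00321 in DESeq2). The deposited span of Junb overlaps Prdx2 on the other strand, which has a mean of 4434.7 counts, and reads of such pairs cannot be told apart without strand.

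Of the 26 immediate early genes tested, 23 had an estimate above 0 for HA against LP and 3 below (Egr3, Nr4a2 and Homer1). HA and LP did not overlap for 12, all higher (46.2% against 5.4% of all genes). An unadjusted p under 0.05 in edgeR was given to 11, all higher, beside 3.06% of all genes. None of the 26 passed the adjusted threshold in edgeR. DESeq2 called 4, all higher, beside 0.0715% of the genes it tested. The list's median was 0.235 for HA against LP and 0.059 for HP against LP, beside 0.0057 and -0.0024 over all genes. Besides the 4 described, the 12 hold Jun, Fosl2, Klf4, Sik1, Egr1, Npas4, Arc and Fosb. On summed FPKM, a level per gene length, the list lay at 212 to 222 in LP, 224 to 225 in HP and 242 to 266 in HA. Without HA replicate 3, 19 estimates were above 0 and the median was 0.234. Without LP replicate 3 and HA replicate 3 together, 20 were above 0 with a median of 0.226, and without LP replicates 1 and 2 together 20 were above 0 with a median of 0.167.

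**Figure D1:**
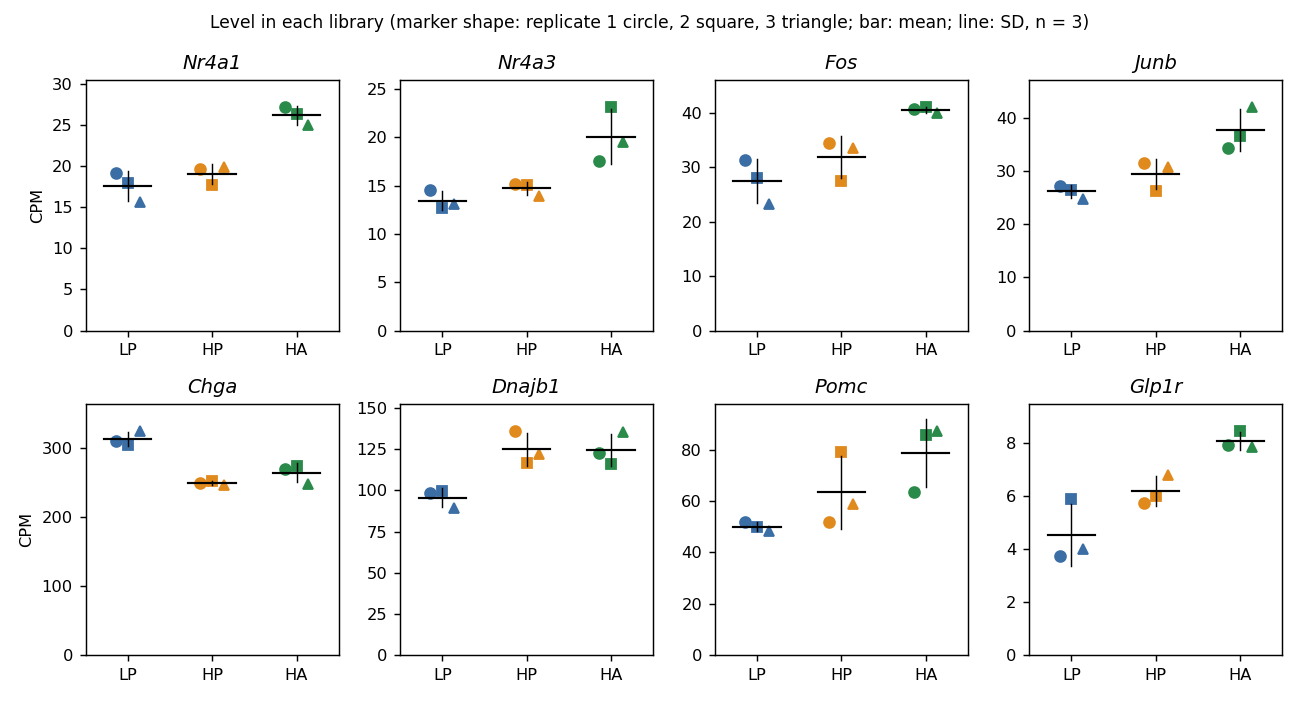
CPM of 8 genes in each library of LP, HP and HA, with each vertical axis starting at 0 (bar: mean, line: SD, n = 3). Nr4a1, Nr4a3, Fos and Junb are higher in all 3 HA libraries than in any other, Chga and Dnajb1 lie apart from LP in both high-fat groups, and Pomc and Glp1r are highest on average in HA.

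Other genes stood apart in HA from both other groups. Lifr (chromosome 15, 7090614 to 7197489), the receptor subunit for leukaemia inhibitory factor and related cytokines, stood at 52.1, 54.5 and 53.3 CPM in LP, 51.5, 51.1 and 46.4 CPM in HP, against 40.2, 43.5 and 42.8 CPM in HA. All HA libraries were below all others (HA against LP -0.34, SE 0.058, adjusted p 0.404 in edgeR and 0.0110 in DESeq2). All HP libraries were below LP too, the highest of them by little. Rcn1 (chromosome 2, 105386291 to 105399319), a calcium-binding protein of the endoplasmic reticulum, stood at 49.9, 50.3 and 47.3 CPM in LP, 51.6, 50.4 and 47.3 CPM in HP, against 64.4, 60.9 and 57.3 CPM in HA. Here all HA libraries were above the others, and LP and HP overlapped (0.31, SE 0.059, adjusted p 0.434 in edgeR and 0.0396 in DESeq2). Hr (chromosome 14, 70552212 to 70573548), a corepressor that is itself a thyroid hormone target in brain, stood at 90.2, 88.6 and 89.1 CPM in LP, 75.7, 88.6 and 96.9 CPM in HP, against 69.5, 71.9 and 65.8 CPM in HA. The LP libraries were within 2 CPM of each other, HP spread around them and HA lay below both (-0.37, SE 0.078, adjusted p 0.572 in edgeR and 0.0158 in DESeq2).

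The thyroid hormone list was split: 9 of its 20 genes had estimates above 0 and 11, Hr among them, below. An unadjusted p under 0.05 in edgeR was given to 3 lower and 0 higher members, beside 3.45% and 3.06% of all genes. HA and LP did not overlap for Hr and Trhde (lower) and Thrb (higher), 15% of the list against 10.9% of all genes. Plvap, the diaphragm protein of fenestrated capillaries such as those of the median eminence, stood at 9.63, 13.9 and 16.3 CPM in LP, 13.2, 12.6 and 12.9 CPM in HP, against 20.8, 19.3 and 18.99 CPM in HA, with no overlap of HA and the other groups (adjusted p 0.645, edgeR). It overlaps Gtpbp3 on the other strand. The endothelial and mural list moved with 1 library: 17 of 23 genes had estimates above 0, and without HA replicate 3, whose deviation on the list was 0.72, only 9 did. Plvap itself was not highest in that library. Tekt4, a tektin of ciliary axonemes, stood at 9.68, 8.19 and 10.6 CPM in LP, 9.67, 8.85 and 9.24 CPM in HP, against 6.53, 6.94 and 7.29 CPM in HA, below both groups in every HA library (adjusted p 0.645, edgeR).

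The naming rule took the 8 genes of smallest p in each direction, passing over pseudogenes and gene models without a name. One such model, Gm10654, had the smallest p of all genes and was lower in HA, and its counts are given in the closing observations. Nr4a1, Nr4a3, Junb, Lifr and Rcn1 were among the genes taken. Lifr and the others taken stood on the same side of LP in every library of HP and HA. Ccdc117 (chromosome 11, 5528887 to 5542187), a coiled-coil protein, stood at 27.6, 25.5 and 25.2 CPM in LP, 30.6, 32.8 and 31.4 CPM in HP, against 33.6, 36.4 and 39.2 CPM in HA (HA against LP 0.48, SE 0.072, adjusted p 0.398 in edgeR and 0.00170 in DESeq2). Fam214a (chromosome 9, 74952884 to 75032468) stood at 61.4, 70.1 and 67.3 CPM in LP, 52.1, 57.99 and 58.5 CPM in HP, against 49.4, 50.8 and 48.9 CPM in HA (-0.41, SE 0.064, adjusted p 0.398 in edgeR and 0.00170 in DESeq2). In both genes the order was LP, HP, HA with no overlap between neighbours, upwards for Ccdc117 and downwards for Fam214a. Dedd2, a death effector domain protein, stood at 31.7, 31.8 and 31.6 CPM in LP, 40.5, 36.1 and 37.1 CPM in HP, against 38.5, 40.0 and 39.5 CPM in HA (adjusted p 0.404, edgeR).

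**Figure D2:**
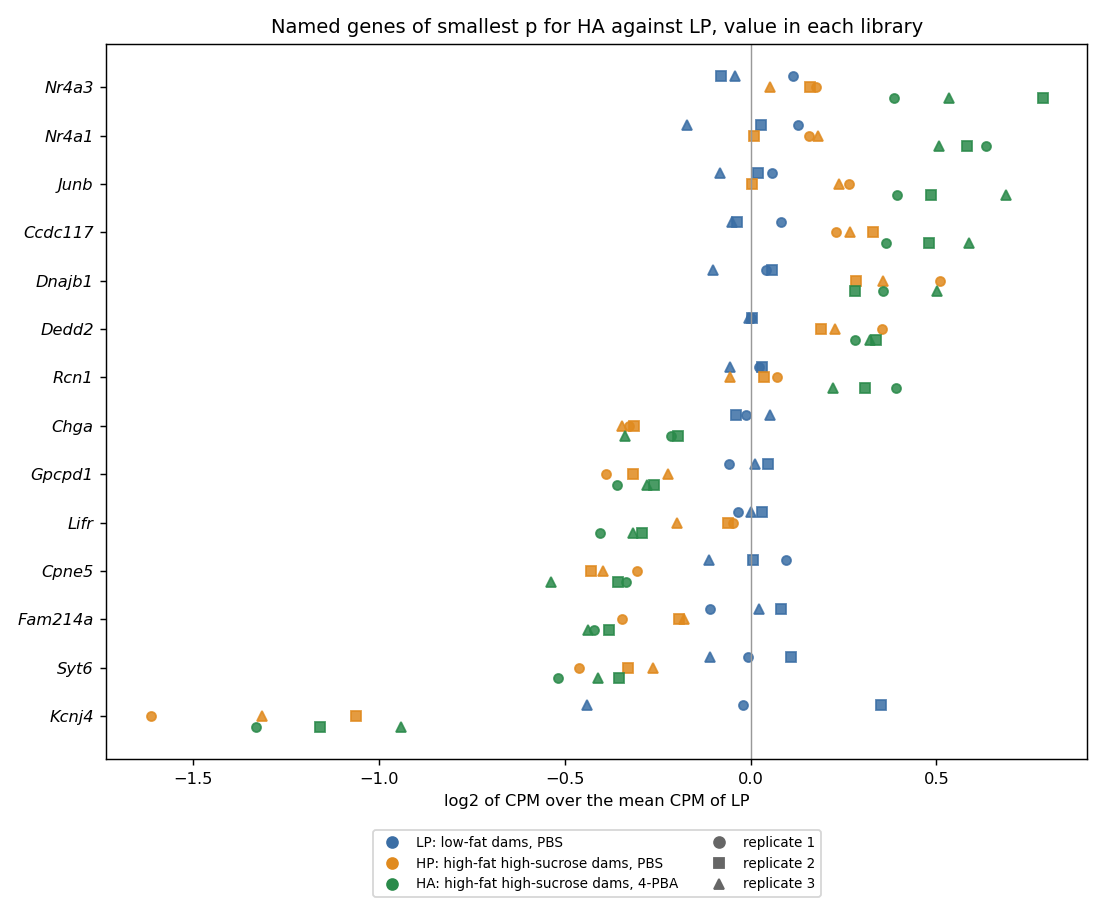
log2 of each library's CPM over the mean CPM of LP, for the named genes of smallest p for HA against LP that are described here, except Gstp2 (colour: group, shape: replicate). HA and LP libraries do not overlap for any gene shown. HP lies beside LP for Nr4a3, Nr4a1, Junb and Rcn1, and between LP and HA for Lifr, Ccdc117 and Fam214a. It lies beside HA for Dnajb1, Chga, Gpcpd1, Cpne5, Syt6 and Kcnj4.

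Chga, Syt6 and Cpne5 stood below LP in every library of both high-fat groups. Chga (chromosome 12, 102554969 to 102565028) encodes chromogranin A, which packs secretory granules, and stood at 311, 305 and 325 CPM in LP and 270.4, 274 and 248 CPM in HA. The HA libraries lay between HP (247 to 253 CPM) and LP or within HP, and none overlapped LP (-0.25, SE 0.045, adjusted p 0.404 in edgeR and 0.00456 in DESeq2). Syt6, a synaptotagmin, stood at 45.3, 49.1 and 42.3 CPM in LP, 33.1, 36.2 and 38.02 CPM in HP, against 31.8, 35.7 and 34.3 CPM in HA (adjusted p 0.404 in edgeR and 0.00609 in DESeq2). Cpne5, a calcium-dependent membrane-binding protein, stood at 51.9, 48.8 and 44.9 CPM in LP, 39.2, 36.03 and 36.9 CPM in HP, against 38.5, 37.9 and 33.5 CPM in HA (adjusted p 0.404 in edgeR and 0.00884 in DESeq2). For both genes HP and HA overlapped each other and neither overlapped LP.

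Kcnj4 (chromosome 15, 79483714 to 79505241), an inward rectifier potassium channel, stood at 14.6, 18.9 and 10.9 CPM in LP, 4.84, 7.09 and 5.95 CPM in HP, against 5.89, 6.62 and 7.71 CPM in HA. Its estimate was -1.14 (SE 0.21, adjusted p 0.404 in edgeR and 0.00170 in DESeq2), the lowest among the lower genes that the naming rule took by p. Without LP replicate 3 and HA replicate 3 its adjusted p was 0.0145 (edgeR). Without LP replicates 1 and 2, the libraries of high striatal genes, its estimate was -0.70 with an adjusted p of 0.893. Gpcpd1, a phosphodiesterase of glycerophosphocholine, stood at 83.4, 89.7 and 87.6 CPM in LP, 66.4, 69.8 and 74.5 CPM in HP, against 67.8, 72.6 and 71.6 CPM in HA (adjusted p 0.404 in edgeR and 0.0117 in DESeq2).

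Over all genes, every library of both HP and HA lay above every LP library for 247 (1.41%) and below for 294 (1.68%), 541 in all (3.08%). The mean of HP and HA against LP gave 1 call in edgeR (Nub1, 0.0057%), 3 with the replicate block and 52 in DESeq2 (0.3%). HP against LP alone gave 2 calls in edgeR (0.0114%), 4 with the block and 32 in DESeq2 (0.144%), and HA against HP gave 2 in edgeR (0.0114%) and 8 in DESeq2 (0.0479%). HP and HA share the LP libraries here, so their likeness against LP is given only gene by gene. HP and HA also share title codes that no LP library has, and the part of these codes in that likeness was not tested.

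The named genes of smallest p for HP against LP were of 3 kinds by where HA stood. Nub1 (chromosome 5, 24685532 to 24710378), a regulator of the ubiquitin-like protein NEDD8, stood at 38.97, 41.5 and 41.8 CPM in HP, and at 71.1, 71.8 and 71.6 CPM in LP and 71.1, 70.5 and 69.2 CPM in HA. HA was at the level of LP, with an estimate of -0.024 and a 95% interval from -0.12 to 0.075. It passed the adjusted threshold for HP against LP (-0.81, adjusted p 0.000101) and for HA against HP (0.79, adjusted p 0.000136, edgeR). Rps7, a ribosomal protein with near-identical pseudogene copies that make its count uncertain, had an interval from -0.14 to 0.031 in HA against -0.37 to -0.20 in HP. Casc4, a Golgi membrane protein, had one from -0.14 to 0.013 in HA against 0.12 to 0.28 in HP.

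Gstp1 and Fras1 lay between. Gstp1, a glutathione transferase, stood at 93.2, 78.3 and 116 CPM in LP, 143, 165 and 166 CPM in HP, against 122, 123.5 and 119.8 CPM in HA, with neighbouring groups not overlapping (HA against LP 0.35, 95% interval 0.084 to 0.61, adjusted p 0.737, edgeR). Fras1, an extracellular matrix protein, stood at 26.2, 27.3 and 27.2 CPM in LP, 18.7, 20.5 and 19.6 CPM in HP, against 24.9, 24.99 and 22.2 CPM in HA (HA against LP -0.16, 95% interval -0.33 to -0.0027). Chga, Gpcpd1 and Kcnj4 were of the third kind, in which the intervals of HP and HA overlapped for most of their length and neither held 0. The difference between HA and HP was 0.080 for Chga (95% interval -0.020 to 0.18), 0.0078 for Gpcpd1 (-0.11 to 0.13) and 0.17 for Kcnj4 (-0.31 to 0.65).

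**Figure D3:**
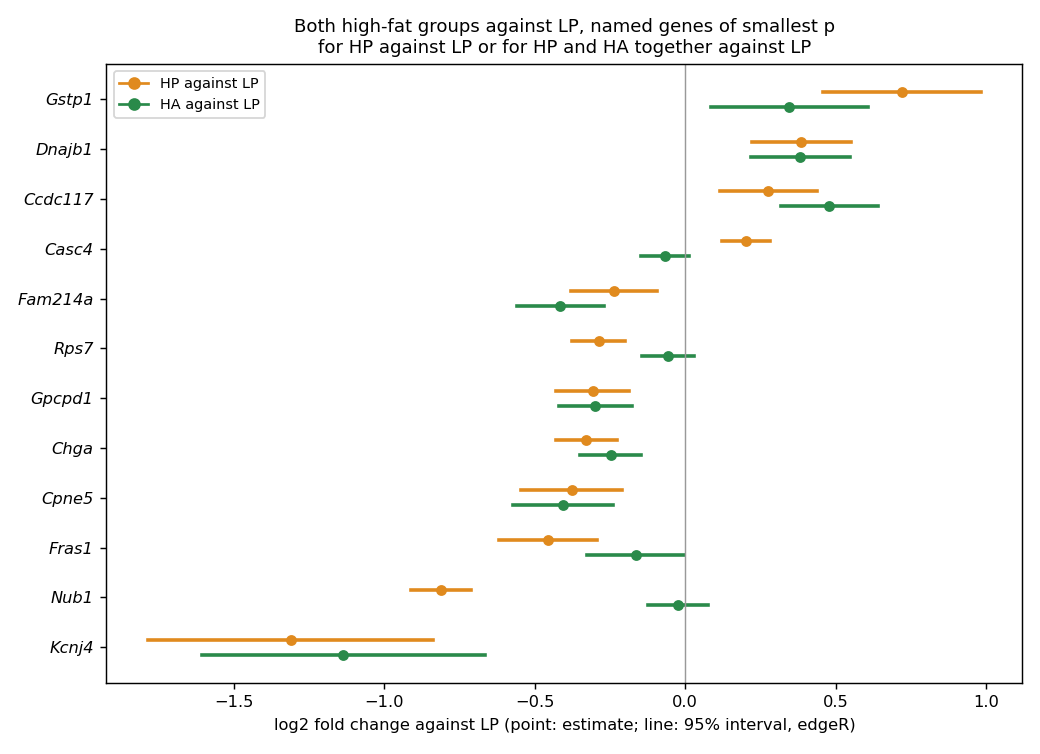
log2 fold change against LP with its 95% interval (edgeR) for the named genes of smallest p for HP against LP or for both high-fat groups together, in HP (orange) and HA (green). The HA interval holds 0 for Nub1, Rps7 and Casc4 and lies beside that of HP for Kcnj4, Cpne5, Chga, Gpcpd1 and Dnajb1; both comparisons share the LP libraries.

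Of the peptides that control feeding, Pomc was higher in every HA library than in any LP library, while HA and LP overlapped for Agrp and Npy. Pomc (chromosome 12, 3954951 to 3960642), the precursor of the melanocortins, stood at 51.8, 49.97 and 48.2 CPM in LP, 51.98, 79.2 and 59.1 CPM in HP, against 63.5, 85.8 and 87.4 CPM in HA. HA replicates 2 and 3 and HP replicate 2 were the highest, and all HA libraries were above LP (0.66, SE 0.15, adjusted p 0.645 in edgeR and 0.00609 in DESeq2). All HP libraries were above LP too, HP replicate 1 by little, and HP and HA overlapped. The pituitary also makes Pomc, which is on the list of pituitary markers. Without Pomc, the 9 tested markers deviated from their mean over all libraries by 0.35 and 0.62 in HA replicates 2 and 3, but also by 0.41 in LP replicate 3, where Pomc was lowest, and by -0.089 in HP replicate 2, where it was high. Their summed FPKM, again without Pomc, was 143 to 154 in LP, 133 to 152 in HP and 152 to 178 in HA. Gh, which encodes growth hormone, stood at 16.2 CPM in HA replicate 3 against at most 2.52 CPM elsewhere. The part of pituitary RNA in the Pomc values was not tested. Cartpt, a satiety peptide precursor made with Pomc in the arcuate nucleus, stood at 88.1, 81.4 and 85.9 CPM in LP and 96.98, 106 and 96.7 CPM in HA, without overlap (adjusted p 0.761, edgeR).

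Agrp, the antagonist of melanocortin receptors, stood at 12.6, 9.32 and 11.7 CPM in LP, 9.01, 16.05 and 12.1 CPM in HP, against 10.7, 16.2 and 15.2 CPM in HA. The groups overlapped (HA against LP, 95% interval -0.17 to 0.81). Agrp was highest in HP replicate 2 and HA replicates 2 and 3, as Pomc was. Its span overlaps Ctcf and Ripor1, so its low count may hold their reads. Npy, which is made by the same neurons, stood at 33.3, 28.5 and 30.5 CPM in LP and 27.4, 40.96 and 37.98 CPM in HA, with overlap (95% interval -0.14 to 0.54). Penk, the enkephalin precursor, stood lower, at 115, 140.4 and 87.04 CPM in LP and 86.7, 80.0 and 80.1 CPM in HA (-0.47, adjusted p 0.697, edgeR). Its estimate was -0.087 without LP replicates 1 and 2, the libraries of high striatal genes. Of 24 appetite peptides tested, 6 had estimates above 0 and 18 below, the median was -0.089, and HA and LP did not overlap for 2 higher (Pomc and Cartpt) and 3 lower (Penk, Vgf and Npw). These are 8.33% and 12.5% of the list, against 5.4% and 5.51% of all genes.

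Among receptors and signalling genes of energy balance, Glp1r (chromosome 17, 30901867 to 30936510), the receptor of the incretin GLP-1, stood at 3.75, 5.87 and 3.97 CPM in LP, 5.73, 6.01 and 6.79 CPM in HP, against 7.91, 8.44 and 7.82 CPM in HA. Every HA library was above every other, at a low level (0.83, SE 0.18, adjusted p 0.572 in edgeR and 0.0494 in DESeq2). Irs1, the insulin receptor substrate, stood at 18.9, 17.1 and 16.5 CPM in LP, 22.5, 21.8 and 20.8 CPM in HP, against 22.9, 20.4 and 24.05 CPM in HA (adjusted p 0.645, edgeR), above LP in both high-fat groups. Lepr, the leptin receptor, ranged from 6.37 to 17.1 CPM in LP and from 5.20 to 22.3 CPM in HA, and was highest in the third library of each, where meningeal genes were high (95% interval -0.83 to 1.33). Mc4r stood at 6.86, 6.72 and 3.60 CPM in LP and 5.06, 3.74 and 5.64 CPM in HA, with overlap (95% interval -0.82 to 0.32). Of 34 genes tested, 18 had estimates above 0 and 16 below, with a median of 0.016, and HA and LP did not overlap for 3 higher (Glp1r, Irs1 and Stat3) and 3 lower (Mchr1, Jak2 and Npy5r), 8.82% each way against 5.4% and 5.51% of all genes. The median was -0.020 without HA replicate 3.

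Genes of the unfolded protein response, a pathway of endoplasmic reticulum stress, stood near LP in HA replicates 1 and 2 but not in HA replicate 3. The list's summed FPKM was 1183 to 1237 in LP, 1293 to 1353 in HP, and 1216, 1190 and 1371 in HA. Hspa5, the chaperone BiP, stood at 617, 660.2 and 606 CPM in LP, 735, 759.5 and 711 CPM in HP, against 602, 611 and 741 CPM in HA. Only HA replicate 3 reached the level of HP, and replicates 1 and 2 lay within or just below the range of LP (HA against LP 0.053, 95% interval -0.12 to 0.23). Xbp1 stood at 113, 126 and 115 CPM in LP, 139, 137 and 133 CPM in HP, against 101, 102 and 147 CPM in HA, again with replicate 3 apart (95% interval -0.29 to 0.26). The transcription factors Atf4 and Ddit3 gave intervals from -0.10 to 0.12 and from -0.16 to 0.15 for HA against LP. The deposited span of Ddit3 overlaps Mars.

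Of the 35 genes of this response, 27 had estimates above 0 for HA against LP, with a median of 0.056. The median was 0.085 for HP against LP and -0.043 for HA against HP. The count turned with 1 library: without HA replicate 3, 14 were above 0 and 21 below, with a median of -0.014. Atf3, which is also an immediate early factor, was the 1 member whose HA and LP libraries did not overlap, at 1.51, 1.85 and 2.42 CPM in LP, 2.06, 2.54 and 1.67 CPM in HP, against 2.62, 2.99 and 2.82 CPM in HA (adjusted p 0.756, edgeR), which is 2.86% of the list against 10.9% of all genes. The list of histone deacetylases, which 4-PBA inhibits, and of acetyltransferases and related genes had 11 of 26 estimates above 0 and a median of -0.0092 (up to 0.015 on omission of 1 library). HA and LP did not overlap for 1 of these, lower in HA (3.85% against 5.51% of all genes).

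Some cytosolic heat shock genes stood near the level of HP. Dnajb1 (chromosome 8, 83608193 to 83612653), the co-chaperone Hsp40, stood at 98.4, 99.5 and 89.1 CPM in LP, 136, 117 and 122 CPM in HP, against 122.6, 116 and 135 CPM in HA (HA against LP 0.38, SE 0.074, adjusted p 0.434 in edgeR and 0.00336 in DESeq2). Hsph1, a nucleotide exchange factor of Hsp70, stood at 362, 394 and 351 CPM in LP, 449.7, 469 and 417 CPM in HP, against 434, 427 and 442 CPM in HA (adjusted p 0.645 in edgeR and 0.0412 in DESeq2). In both, HP and HA overlapped each other and not LP. Of 16 genes, 15 had estimates above 0 (median 0.10, beside 0.15 for HP against LP), and 4 did not overlap LP, all higher (Dnajb1, Hsph1, Dnajb4 and Hsp90ab1), which is 25% against 5.4% of all genes. Without HA replicate 3, 13 were above 0 and the median was 0.053.

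The interferon response list spread widely within HA. Its libraries deviated from the mean of all 9 by -0.70, 0.064 and 0.59 in HA replicates 1 to 3, against -0.67, -0.41 and 0.073 in LP and 0.24 to 0.57 in HP. Of 28 genes, 24 had estimates above 0 for HA against LP (median 0.39, and 0.71 for HP against LP), but 16 without HA replicate 3 (median 0.077) and 17 without LP replicates 1 and 2 (median 0.086). HA and LP did not overlap for Stat2 and Xaf1, both higher (7.14% against 5.4% of all genes). Irf7, a factor that amplifies the response, stood at 1.56, 1.80 and 2.42 CPM in LP, 7.78, 5.18 and 6.16 CPM in HP, against 1.38, 3.47 and 3.14 CPM in HA, with HA overlapping LP and lying below HP (HA against LP, adjusted p 0.834, edgeR). The glucocorticoid response list had 7 of 16 estimates above 0 and a median of -0.054, which was 0.013 without LP replicate 3 and -0.21 without HA replicate 3. Its members Hif3a (11.7, 12.97 and 15.5 CPM in LP and 6.44, 9.40 and 10.7 CPM in HA) and Cdkn1a (52.5, 52.0 and 58.6 CPM in LP and 44.5, 47.8 and 49.4 CPM in HA) stood lower in HA without overlap (adjusted p 0.697 and 0.697, edgeR), 12.5% of the list against 5.51% of all genes.

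All 13 genes of the mitochondrial genome that encode respiratory chain subunits had estimates below 0 for HA against LP, with a median of -0.18 beside -0.098 for HP against LP. HA and LP did not overlap for 6 of them, all lower (46.2% against 5.51% of all genes). An unadjusted p under 0.05 in edgeR was given to 6, all lower, beside 3.45% of all genes. The 13 lie on the same small genome and may not vary independently of each other. mt-Nd6 stood at 873, 906 and 917 CPM in LP, 910.2, 874 and 920.2 CPM in HP, against 850.0, 792 and 772 CPM in HA, and mt-Atp6 at 31.2, 61.2 and 46.8 CPM in LP, 41.7, 30.2 and 32.1 CPM in HP, against 28.7, 29.8 and 27.6 CPM in HA. The HA libraries lay below both groups in each gene, by a small margin (adjusted p 0.697 and 0.663, edgeR). Both overlap a neighbouring mitochondrial gene. The mean count was 717 for mt-Atp6 and 905 for mt-Co3, which it overlaps, beside 16985 for mt-Nd6 and 71641 for mt-Nd5. The cause of the low counts of mt-Atp6 and mt-Co3 was not tested, and their levels are uncertain. LP replicate 2 was the highest library on the list, and without it 12 estimates were below 0 and the median was -0.11. The nuclear-encoded subunits gave 14 of 34 estimates above 0 and a median of -0.012, between -0.036 and 0.015 on omission of 1 library.

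Cytosolic ribosomal proteins leaned the other way by a small amount. Of 55 genes, 37 had estimates above 0 with a median of 0.035 (0.023 to 0.053 on omission of 1 library, and -0.0060 for HP against LP), and HA and LP did not overlap for 14 higher and 1 lower (27.3% against 10.9% of all genes). Rpl37 stood at 119, 121 and 124 CPM in LP, 128, 130.4 and 119 CPM in HP, against 142, 135 and 136 CPM in HA, and Rpl35 at 72.4, 75.6 and 78.3 CPM in LP, 74.6, 78.02 and 70.5 CPM in HP, against 85.3, 84.2 and 85.1 CPM in HA (adjusted p 0.645 for both, edgeR). HA lay above both groups in each, but ribosomal protein genes have many pseudogene copies that can share their reads, and Rpl35 overlaps Arpc5l.

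Synaptic lists leaned lower in HA, together with the striatal markers. Of 22 genes of GABA synthesis, transport and receptors, 20 had estimates below 0 (median -0.065), and of 33 glutamate genes 27 did (median -0.075). Grin2a, an NMDA receptor subunit, stood at 31.5, 29.2 and 28.99 CPM in LP, 26.7, 25.9 and 21.3 CPM in HP, against 22.2, 24.7 and 24.6 CPM in HA (adjusted p 0.645, edgeR). Without LP replicates 1 and 2, the GABA list had 13 estimates above 0 and 9 below, and the glutamate list 16 and 17. The glutamate median was -0.043 without HA replicate 3.

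Of 22 monoamine and histamine genes, 19 had estimates below 0 (median -0.12, and -0.11 for HP against LP). Without LP replicate 3, 13 were below 0 and the median was -0.068. Drd2, a dopamine receptor also abundant in striatum, stood at 20.8, 24.8 and 19.4 CPM in LP, 14.7, 13.4 and 18.5 CPM in HP, against 16.9, 14.5 and 14.4 CPM in HA (adjusted p 0.645, edgeR). Th, the rate-limiting enzyme of dopamine synthesis, stood at 29.6, 31.2 and 41.7 CPM in LP, 22.8, 26.5 and 31.1 CPM in HP, against 24.9, 24.7 and 26.4 CPM in HA, with HA below LP in all libraries (adjusted p 0.702, edgeR). The 17 striatal markers all had estimates below 0 (median -0.50, and -0.39 for HP against LP). They deviated by 0.54 and 0.72 in LP replicates 1 and 2, by -0.11 in LP replicate 3 and by -0.28 to -0.13 in the 6 high-fat libraries, and none was at 0 in all libraries. Their summed FPKM was 191 to 295 in LP, 177 to 186 in HP and 178 to 181 in HA. Without LP replicates 1 and 2, 12 of 17 were below 0 with a median of -0.10. The part of the striatal markers in the synaptic values was not tested.

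Gstp2 had the largest estimate in size of all list members. This glutathione transferase, a low-level copy beside Gstp1 on chromosome 19, stood at 0.0486, 0.0946 and 0.215 CPM in LP, 0.389, 0.725 and 0.418 CPM in HP, against 0.460, 2.35 and 1.92 CPM in HA. The lowest HA library was above the highest LP library, but HA spread from 0.460 to 2.35 CPM (3.67, SE 0.72, adjusted p 0.434 in edgeR and 0.00884 in DESeq2). Its count is uncertain, since it is closely related to Gstp1 and reads may be shared. Gstt1 stood at 11.4, 8.33 and 10.4 CPM in LP, 12.1, 10.3 and 12.1 CPM in HP, against 14.1, 14.95 and 18.6 CPM in HA, above both groups (adjusted p 0.645 in edgeR and 0.0412 in DESeq2). The list of 26 as a whole was split, with 14 estimates above 0 and a median of 0.012, which omission of LP replicate 1 turned to -0.016 and that of LP replicate 3 raised to 0.057.

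**Figure D4:**
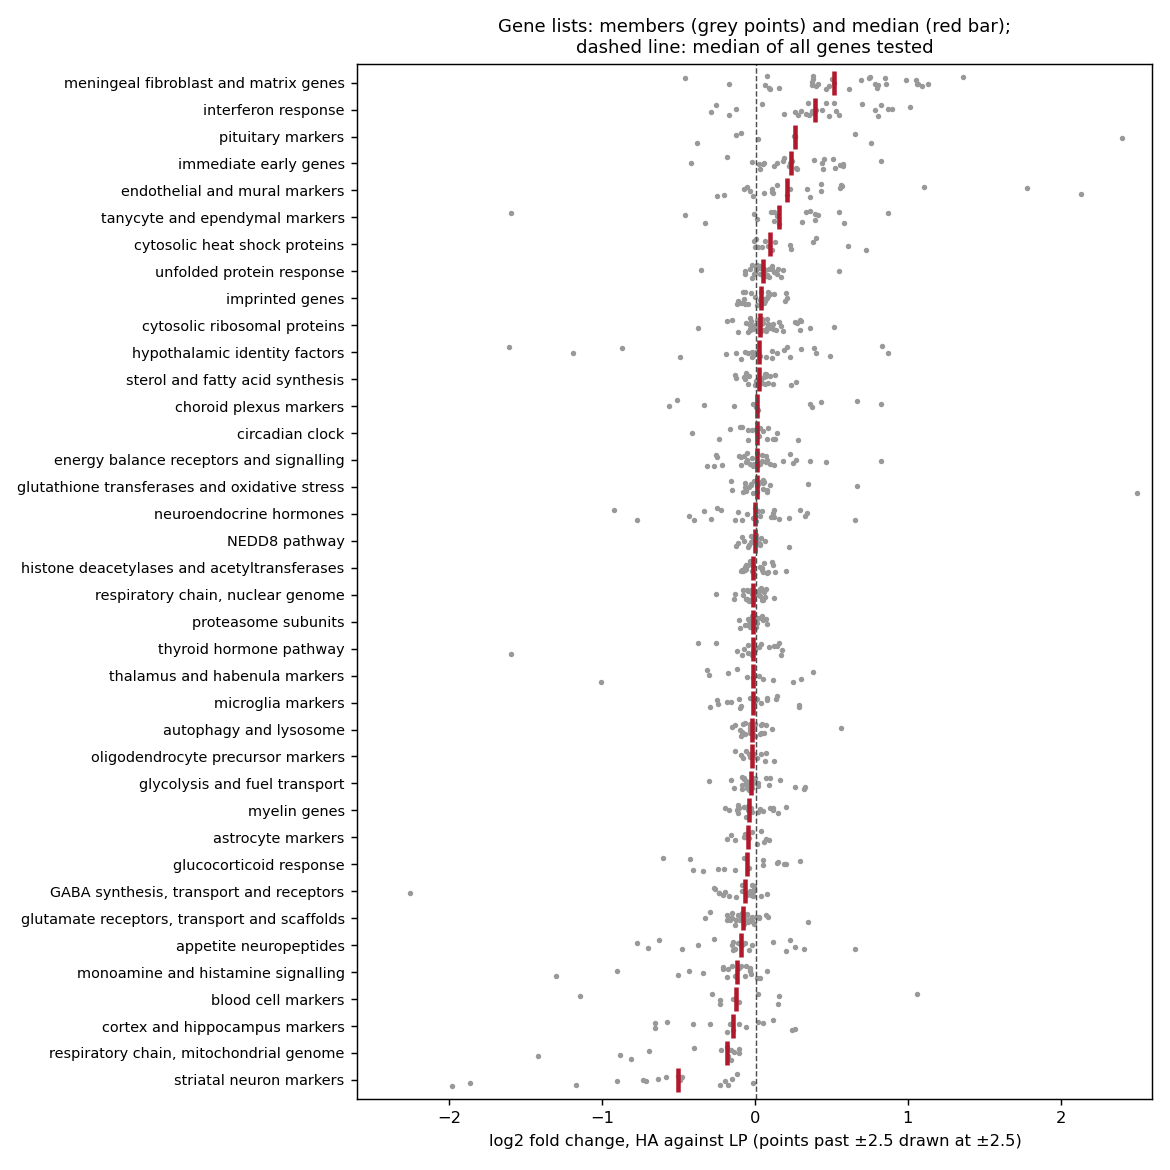
log2 fold change of HA against LP for each gene of 38 lists (grey points), with each list's median (red bar) and the median of all genes tested (dashed line); points past 2.5 in size are drawn at 2.5. Immediate early genes have a median of 0.235 and the mitochondrial genome's respiratory chain genes -0.18, while the meningeal and interferon medians move with single libraries and the striatal median is -0.10 without LP replicates 1 and 2.

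Medians of other lists were -0.0020 for the 22 genes of the NEDD8 pathway to which Nub1 belongs, 0.016 for 19 clock genes, 0.025 for 29 genes of sterol and fatty acid synthesis, -0.013 for 31 proteasome subunits, -0.023 for 28 genes of glycolysis and fuel transport, -0.021 for 31 genes of autophagy and lysosome, 0.038 for 25 imprinted genes and 0.0010 for 29 neuroendocrine hormones. Omission of 1 LP or HA library moved several of these. The sterol and fatty acid median was 0.106 with 26 of 29 above 0 without LP replicate 2, -0.052 with 12 above 0 without LP replicate 1 and -0.044 without HA replicate 1. Imprinted genes gave -0.046 without LP replicate 2 and 0.10 without LP replicate 3, clock genes -0.030 without LP replicate 2 and 0.050 without HA replicate 1, and hormones -0.029 without HA replicate 1 and 0.025 without LP replicate 1. Medians of the NEDD8, proteasome, glycolysis and autophagy lists lay between -0.043 and -0.0019 under each such omission.

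Of the 28 hypothalamic identity factors, 16 had estimates above 0 (median 0.029). The median was 0.13 without LP replicate 1, 0.10 without LP replicate 3 and 0.013 without LP replicate 2. HA and LP did not overlap for 4 higher (Nr0b1, Six3, Rax and Six6) and 1 lower, 14.3% and 3.57% of the list against 5.4% and 5.51% of all genes. Nr0b1 stood at 1.36, 1.23 and 1.77 CPM in LP and 2.58, 3.04 and 2.13 CPM in HA (adjusted p 0.645, edgeR).

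Markers of other cells and tissues differed widely between libraries of a group. Meningeal fibroblast and matrix genes had 31 of 33 estimates above 0 for HA against LP, with a median of 0.52, but all 33 below 0 without HA replicate 3 (median -1.24) and all 33 above without LP replicate 3 (median 2.26). Without both, 24 were above 0 with a median of 0.18. Their summed FPKM ran from 85.5 to 2145 in LP, 118 to 411 in HP and 122 to 3738 in HA. Myelin genes had a median of -0.041 for HA against LP and 0.20 for HP against LP, and their libraries ran from -0.41 to 0.27 within HA. Omission of 1 library moved the myelin median from -0.29 (without HA replicate 1) to 0.12 (without LP replicate 2). Medians lay between -0.14 and 0.016 for markers of cortex and hippocampus, thalamus and habenula, oligodendrocyte precursors, astrocytes, microglia, choroid plexus and blood, and 0.16 for tanycytes and ependyma. The blood median of -0.12 was -0.98 with 0 of 10 above 0 without HA replicate 3, and 0.50 with 9 of 10 above 0 without LP replicate 3. The tanycyte median was 0.092 without HA replicate 3 and 0.34 without HA replicate 2, and that of choroid plexus -0.049 without LP replicate 1 and 0.17 without HA replicate 1. The other 5 lists of these stayed between -0.17 and 0.048.

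**Figure D5:**
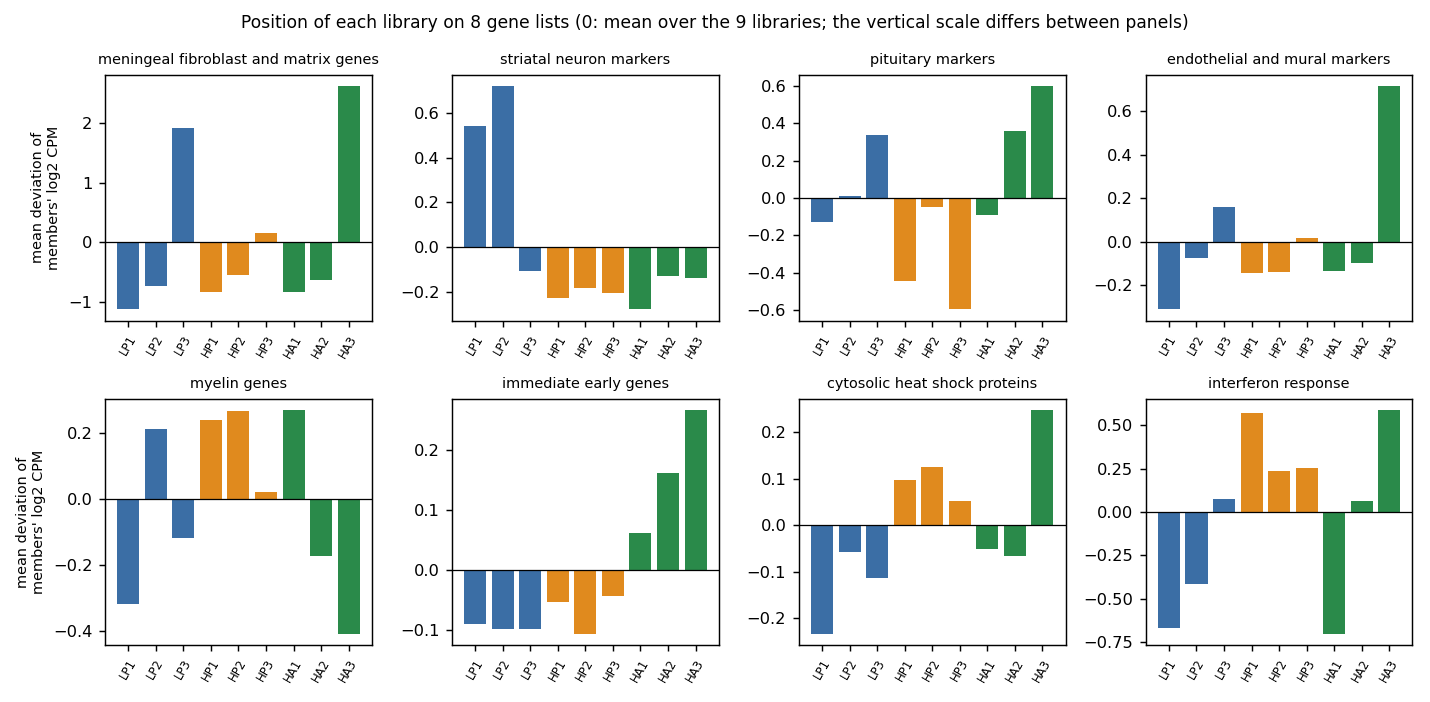
Position of each library on 8 lists, as the average over members of log2 CPM minus the gene's average in all 9 libraries; each vertical scale differs. HA replicate 3 (2.63) and LP replicate 3 (1.93) stand out on meningeal genes and LP replicates 1 and 2 (0.54 and 0.72) on striatal markers, while the 3 HA libraries are the only ones above 0 on immediate early genes (0.061, 0.16 and 0.27).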

How the data were processed

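RNA from 9 hypothalami, in 3 groups of 3, was made into libraries (3 µg each, NEBNext Ultra kit). The labels' protocols do not describe the kit as stranded. The authors deposited read counts per gene and FPKM values for 54532 genes. The deposited counts are whole numbers and not normalized. The deposited FPKM values are counts per gene length and library size (ratio to recomputed FPKM 0.9813 to 1.011). Per the submitters' processing notes, the build was mm9 and the tools were DESeq2 1.16.1, featureCounts 1.5.0-p3 and HISAT2 2.0.5. However, 53585 of 54495 identifiers (98.3%) shared with the GENCODE annotation of GRCm38 had the same start and end, so positions are read as GRCm38. Gene names were dates for 27 genes, and 103 repeated, so identifiers were used.

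The main test was edgeR 4.0.16 in R 4.3.3 (quasi-likelihood F test, all 9 libraries, group as the only term, filterByExpr, TMM, two-sided, Benjamini-Hochberg over 17546 genes, threshold 0.05), with a biological coefficient of variation of 14.1%. DESeq2 1.42.0, limma-voom (limma 3.58.1), other scalings and filters, a replicate block and omission of libraries were alternatives. The fits were tested on simulated counts, with changes larger than most described here and no libraries that stood apart. That test does not cover smaller changes or such libraries. Libraries of a group differed by 4.73 to 25.83 chi-square per degree of freedom, so all were kept. The labels do not say whether litters were separate, and a p-value then reflects only how these libraries vary, which may be technical. An exact permutation test of 3 against 3 cannot go below 0.1 and was not used. Deviations of same-numbered LP and HA libraries correlated at 0.256, 0.144 and 0.486 across genes. LP replicate 1 with HA replicate 2 gave 0.251, and LP replicate 2 with HA replicate 1 gave 0.182. Pairs of a replicate 3 with another number lay between -0.37 and -0.24. These values set replicate 3 apart and do not show that numbers pair libraries. The labels do not say that a number marks a pair, so the replicate block was an alternative only.

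The comparison and the gene lists were chosen with earlier results of these data known. Pseudogenes and gene models without a name (Gm numbers, Rik and clone names) were passed over in ranking by p, which left 14553 of 17546 genes. Named genes are the 8 of smallest p in each direction for HA against LP, 2 of smallest p from each list, 11 always named (Nub1, Hspa5, Xbp1, Atf4, Ddit3, Pomc, Cartpt, Agrp, Npy, Lepr and Mc4r), the 8 of smallest p for HP against LP and for both high-fat groups against LP, and the most abundant gene of each list of other cells. Others were named after their values were seen: list members whose libraries did not overlap or whose estimates went against their list, Fos, Irf7, and the genes of the closing observations. Some genes that these rules select are not reported here.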

Additional observations from a re-analysis of the deposited data

How the results depend on the processing

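For HA against LP, edgeR called 0 genes with all libraries, and the count stayed at 0 with DESeq2 size factors in edgeR, library totals, at least 1 CPM in 3 libraries, limma-voom and the replicate block. DESeq2 called 27, no filter 41, only the compared libraries 1, the block in only HA and LP libraries (added after seeing the data) 2 (Ppia and Gm10123), omission of 1 library 0 to 14, and omission of LP replicate 3 with HA replicate 3 gave 23. The 14 came when LP replicate 3 was left out. Leaving out LP replicate 1 gave 1, HP replicate 3 gave 1 and HA replicate 3 gave 2. For HP against LP, against 2, DESeq2 called 32, library totals 1, no filter 53, only the compared libraries 4, the replicate block 4, omission of 1 library 1 to 23, and omission of LP replicate 3 with HA replicate 3 gave 37. For HA against HP, against 2, DESeq2 called 8, no filter 5, omission of 1 library 1 to 9, and that pair's omission 10. For both high-fat groups against LP, against 1, DESeq2 called 52, no filter 64, the replicate block 3, omission of 1 library 0 to 27, that pair's omission 54 and omission of LP replicates 1 and 2 gave 0. The block changed no other call. The cause of these changes was not tested. Of 120 genes followed through 20 settings, 25 reversed sign in at least 1. Depth limits genes of few reads, such as Gstp2, Atf3 and Irf7.

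Without LP replicates 1 and 2, log2 estimates for HA against LP reversed to 0.069 for Adora2a, -0.019 for Atf4, 0.036 for Camk2a, -0.013 for Chgb, 0.42 for Gabrd, 0.076 for Lamp5, -0.48 for Lepr, -0.046 for Lyz2, 0.016 for Mbp, 0.41 for Mc4r, -0.74 for Ptgds, -0.13 for Slc17a6, 0.047 for Sostdc1 and 0.017 for Xbp1. Without LP replicate 3 and HA replicate 3 they reversed to 0.033 for Ddit3, -0.015 for Emp1, -0.071 for Hspa5 and 0.0079 for Mbp, and with library totals to 0.0076 for Ddit3. Omission of 1 library gave ranges that crossed 0, of -0.15 to 1.196 for Emp1, -0.15 to 1.59 for Lum, -1.88 to 0.50 for Slc4a1, -0.17 to 0.92 for Vim, -0.0091 to 0.25 for Gpr37, -0.99 to 2.25 for Lyz2, -0.049 to 0.10 for Hspa5, -0.21 to 0.015 for Slc2a1, -0.51 to 0.82 for Lepr, -0.35 to 0.11 for Mbp, -3.35 to 4.79 for Ptgds, -0.087 to 0.037 for Csf1r, -0.026 to 0.045 for Chgb, -0.039 to 0.047 for Atf4, -0.044 to 0.11 for Slc17a6, -1.09 to 0.22 for Hba-a1, -0.22 to 0.073 for Xbp1, -0.12 to 0.21 for Enpp2 and -0.055 to 0.043 for Ddit3.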

Other observations

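DESeq2 called 7 genes outside the naming rule besides Fos, all named here after their values were seen. Cd82, a tetraspanin, stood at 21.99, 24.2 and 26.7 CPM in LP, 36.2, 35.5 and 42.3 CPM in HP, against 43.3, 30.6 and 38.4 CPM in HA (adjusted p 0.538 in edgeR and 0.00456 in DESeq2). Arpp21, a phosphoprotein abundant in striatum, stood at 106, 132 and 90.5 CPM in LP, 66.9, 77.6 and 68.4 CPM in HP, against 72.1, 79.7 and 69.3 CPM in HA (adjusted p 0.572 in edgeR and 0.00321 in DESeq2). Both lay apart from LP in all 6 high-fat libraries, and Arpp21 was highest in LP replicates 1 and 2, as the striatal markers were. The peroxisomal transporter Slc25a17 stood at 50.6, 35.3 and 47.4 CPM in LP and 30.9, 20.9 and 23.7 CPM in HA, and the peroxisomal reductase Decr2 at 17.4, 16.9 and 16.8 CPM and 34.6, 19.6 and 34.9 CPM (adjusted p 0.645 for both in edgeR, and 0.00658 and 0.0240 in DESeq2). Hhipl1 stood at 32.4, 37.4 and 26.5 CPM in LP and 21.1, 22.1 and 19.04 CPM in HA (adjusted p 0.645, edgeR), and Gm49502, which has no further name, was called as well.

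Gm10654 (chromosome 8, 70931405 to 70933037), an unnamed model of uncertain coding status, had the smallest p of all genes for HA against LP. It held 56, 16 and 22 counts in LP, 18, 22 and 17 in HP and 1, 0 and 0 in HA. The ratio of LP to HA was 92.4 with a counting interval from 16.2 to 3687 at the 95% level. That interval pools the reads of each group and leaves out the spread between libraries. In edgeR the log2 estimate of HA against LP was -6.07 (95% interval -7.94 to -4.21), with an adjusted p of 0.398.

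Ppia, the gene of cyclophilin A and a common reference gene, did not follow the groups alone. It stood at 405, 411 and 436 CPM in LP, 785, 727 and 422 CPM in HP, against 778, 695 and 704 CPM in HA, so HP replicate 3 stood with LP. The gene model Gm10123 stood at 326, 349 and 254 CPM in LP, 55.8, 94.3 and 336 CPM in HP, against 62.3, 97.6 and 82.5 CPM in HA, low in the 5 libraries where Ppia was high. Whether the pair shares reads was not tested.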
